A study of Mus musculus with 6 samples.

Results

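Genes that supply cells with pyrimidine nucleotides were followed in mouse T helper 1 (Th1) cultures that received a vehicle or LPC. The genes were taken by symbol: uridine phosphorylase (Upp1), the uridine and thymidine kinases (Uck1, Uck2, Uckl1, Tk1, Tk2) and the enzymes of de novo synthesis (Cad, Dhodh, Umps, Ctps). All 10 were found among the 18046 genes listed in each library. The genes were chosen by function with the FPKM difference between LPC and vehicle in these same libraries known, in which Upp1 had stood out. That difference is therefore given for the 10 as a description: intervals and calls show where each gene falls in a fit across all genes, and support nothing about the choice.

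Naive CD4+ T cells came from the spleen of C57BL/6 mice with a labelled age of 3 weeks. They were stimulated through CD3 and CD28 for 3 days in a Th1-polarizing culture, with vehicle (n = 3) or with LPC at 20 µM (n = 3). The labels neither spell out LPC nor name the vehicle. Whether replicates are separate mice or cultures is not labelled, so each p-value reflects variation among these libraries alone, and that variation may be purely technical. Gene expression was measured by sequencing of total RNA and is given as FPKM, fragments scaled to the length of the gene's exons and to the mapped reads of the library. In such bulk samples, fewer cells of a type and less RNA per cell cannot be told apart.

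Pyrimidine nucleotides are the building blocks of RNA and DNA and carry sugars and lipid head groups for glycan and membrane synthesis. Cells either build the ring anew from glutamine, bicarbonate and aspartate, or salvage preformed nucleosides such as uridine and thymidine. Activated T cells are known to depend on the de novo route when they start to divide. Uridine phosphorylase stands apart from the other salvage enzymes, since it splits uridine into uracil and ribose 1-phosphate, whose sugar can enter central carbon metabolism.

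The T cell identity of the cultures was visible in the markers. The 6 T cell markers (Cd3d, Cd3e, Cd3g, Cd4, Cd28 and Cd5) summed to 1036 to 1041 FPKM with vehicle and 1010 to 1068 FPKM with LPC. Within this sum Cd4 was listed at 185.33 to 205.2 FPKM with vehicle and 143.89 to 177.07 with LPC. Cd5 was listed at 262.21 to 282.75 FPKM with vehicle and 291.59 to 299.99 with LPC. Neither was called in the fit given below, and the other markers of the sum overlapped between the groups. Cd8a stayed at or below 0.33 FPKM, whereas Cd8b1 was listed at 10.57 to 14.19 FPKM. The 21 listed markers of B, myeloid, neutrophil, natural killer, dendritic and erythroid cells reached at most 0.63 FPKM. The 5 myeloid markers summed to 0.05 to 0.19 FPKM with vehicle and 0.33 to 0.43 with LPC, so each stayed near 0. Low values came nearest to whole reads at 18.75 to 19 M reads per library, an estimate of depth rather than a deposited total. LPC replicate 3 lay farthest out on the first principal component, at 21.10 against 3.03 and 10.84 for the other LPC libraries. In that library the 1001 tested genes of greatest transcript length (6492 bases or more) deviated from the LPC group median by a median of -0.23 (log2), against -0.05 to 0.08 in the others.

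The start sites of the 3 genes called higher with LPC, and of Tk2, whose LPC libraries all lay below the vehicle libraries, are shown by the 120 bases before the RefSeq start, on GRCm38.p6 and 5′ to 3′ along the gene. Capitals mark the GC box, GGGCGG on either strand, a short element of many promoters. The windows are chr11:9117888-9118007 (plus strand, the most upstream of 3 listed starts), chr5:31054660-31054779 (plus strand), chr11:117826015-117826134 (minus strand) and chr8:104248559-104248678 (minus strand). The RefSeq gene span reaches upstream of the listed start for Cad, Tk1 and Tk2, so the Cad window lies inside its span and those of Tk1 and Tk2 partly so.
Upp1: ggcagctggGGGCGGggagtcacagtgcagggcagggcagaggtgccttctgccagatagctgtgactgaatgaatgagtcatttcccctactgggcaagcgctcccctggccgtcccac
Cad: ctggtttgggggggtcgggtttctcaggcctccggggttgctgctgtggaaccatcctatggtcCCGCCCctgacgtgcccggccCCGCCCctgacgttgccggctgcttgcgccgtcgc
Tk1: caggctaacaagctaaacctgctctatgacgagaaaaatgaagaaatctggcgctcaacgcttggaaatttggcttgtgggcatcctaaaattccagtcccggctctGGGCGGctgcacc
Tk2: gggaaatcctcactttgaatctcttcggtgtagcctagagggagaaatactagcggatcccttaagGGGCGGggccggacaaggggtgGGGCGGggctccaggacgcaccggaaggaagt
The Upp1 and Tk1 windows each held 1 GC box, and the Cad and Tk2 windows each held 2. Promoters of 9 of the 10 genes were in the RefSeq table, which has 250 bases before and 50 after each start. A GC box was found for 8 of these 9, against 70.7% of 8244 tested genes with a listed promoter and 38.2% of all 27025. Further motifs searched on both strands were the E-box CACGTG, found in none of the 9 against 12.3% of tested genes, and the CCAAT box, found for Uck2 alone against 43.7%. The NRF1 palindrome was found for Uck1 and Ctps, against 2.6%. Within these windows the GC box was present both in the genes called higher and in Tk2. In Uck2, 2 of the 4 GC boxes overlapped by 1 base.

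The 10 genes spanned a wide range of levels. With vehicle, the uridine-cytidine kinase gene Uck2 was highest at 117.6 ± 3.91 FPKM (SD, n = 3), above the level of 96.6% of all listed genes over the 6 libraries. Tk1 followed at 39.6 ± 4.25 FPKM, then Ctps at 32.0 ± 1.38, Uck1 at 25.6 ± 1.02, Umps at 22.2 ± 0.881, Uckl1 at 16.9 ± 1.19, Cad at 14.3 ± 0.875, Tk2 at 11.2 ± 0.702, Dhodh at 5.63 ± 0.495 and Upp1 at 2.90 ± 0.391 FPKM. No neighbours in this order had overlapping ranges with vehicle. With LPC the ranges of Umps (24.63 to 25.63 FPKM) and Uck1 (23.73 to 26.17) overlapped, and so did those of Upp1 (6.90 to 7.49) and Dhodh (6.88 to 7.56). Upp1 thus moved from the lowest place to the level of Dhodh, Cad moved above Uckl1, and the mean of Umps moved above that of Uck1. The plot of levels by library shows these shifts. The spread within a group was small for most genes, with coefficients of variation of 1.32% to 13.5%, and the widest, 15.7%, belonged to Cad with LPC.

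**Figure D1:**
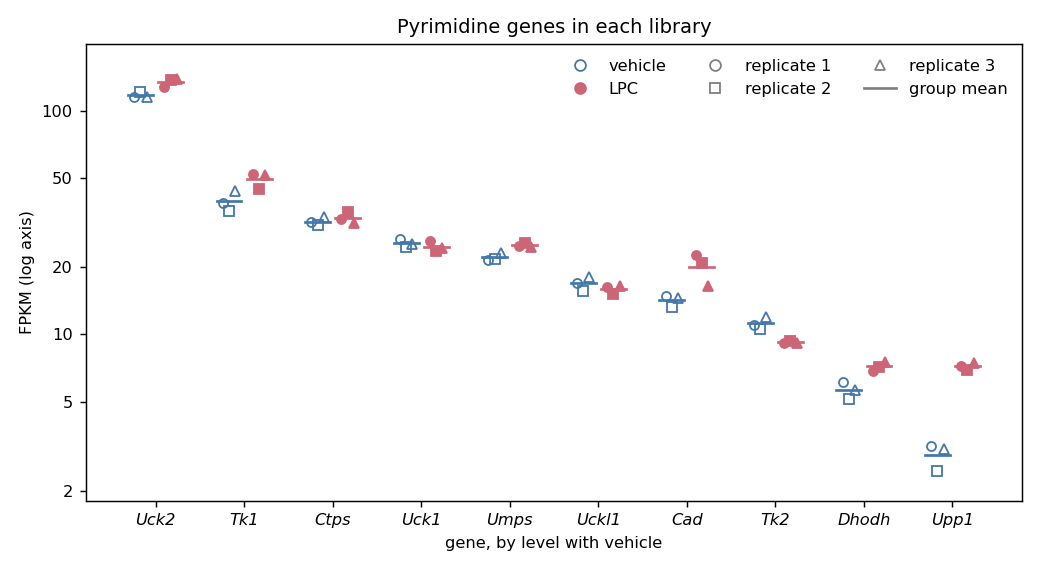
FPKM (log axis) of the 10 genes in each library, ordered by their level with vehicle; open symbols are the 3 vehicle libraries, filled symbols the 3 LPC libraries, shapes the replicate numbers and bars the group means. Upp1 lies at 2.45 to 3.18 FPKM with vehicle and 6.90 to 7.49 with LPC, and Cad in LPC replicate 3 lies at 16.54 FPKM, below the other LPC libraries.

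Each gene was compared between the groups by limma on log2(FPKM + 1), fitted to the 10138 genes that reached an FPKM of 1 in at least 3 libraries, and called at a Benjamini-Hochberg adjusted p under 0.05 over all of them. All 10 genes passed the filter in both groups. Upp1, Cad and Tk1 were called higher with LPC, and none was called lower (5 higher and 1 lower at an unadjusted p under 0.05). Of all genes tested, 13.7% were called, 5.82% higher and 7.91% lower, and at an unadjusted p under 0.05 limma gave 12.2% higher and 17.9% lower, the background for each such count below. The median log2 change of the 10 genes was 0.19, beside -0.04 for all tested genes. The ranges of the 2 groups were separate for 7 of the 10, 6 higher and 1 lower; of all tested genes 34.5% did not overlap, 13.7% higher and 20.7% lower with LPC. Since the genes were chosen with this contrast known, these counts describe them and are not evidence about the pathway.

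**Figure D2:**
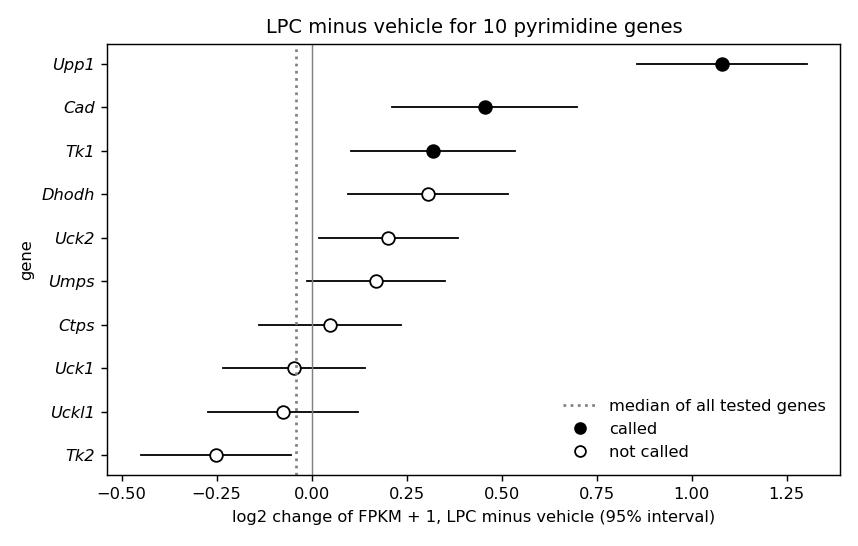
Log2 change of FPKM + 1, LPC minus vehicle, for each of the 10 genes, with the 95% interval of the fit (n = 3 against 3); filled points are called, open points are not, and the dotted line is the median of all tested genes (-0.04). Upp1 stands at 1.08, Cad and Tk1 at 0.45 and 0.32, and the intervals of Umps, Ctps, Uck1 and Uckl1 include 0.

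Upp1, the gene of uridine cleavage, had the largest difference of the 10. It was listed at 3.18, 2.45 and 3.06 FPKM in vehicle replicates 1 to 3 and at 7.25, 6.90 and 7.49 FPKM in LPC replicates 1 to 3. The lowest LPC library was thus more than double the highest vehicle library, and the LPC libraries lay closer to each other than the vehicle libraries did. The means were 2.90 ± 0.391 and 7.21 ± 0.297 FPKM (SD, n = 3 each), a ratio of 2.49. On the log2(FPKM + 1) scale the change was 1.08 (SE 0.10, 95% interval 0.86 to 1.30); this scale understates the change of a gene at such a low level, and with a pseudocount of 0.1 the change was 1.30. In the 13 alternative fits its log2 change was 0.99 to 1.30, a range that describes the same 6 libraries from which the gene was known. The gene (ID 22271) lies on chromosome 11 of GRCm38 at 9118008 to 9136170. Its relative Upp2, the other uridine phosphorylase gene, was listed at no more than 0.06 FPKM in any library, so Upp1 was the uridine phosphorylase gene with measurable expression in these cultures.

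The uridine-cytidine kinases carry out the other fate of uridine, its phosphorylation to UMP. Uck2 (chromosome 1, 167222895 to 167285933), the family member known for high expression in dividing cells, was listed at 115.39, 122.16 and 115.38 FPKM with vehicle and 128.39, 138.63 and 139.51 FPKM with LPC. Every LPC library lay above every vehicle library, by a ratio of means of 1.15, but the gene was not called (log2 change 0.20, SE 0.09, 95% interval 0.02 to 0.39). Uck1 (chromosome 2, 32255002 to 32260105), the broadly expressed kinase, was listed at 26.68, 24.67 and 25.34 FPKM with vehicle and 26.17, 23.73 and 24.30 with LPC. Uckl1 (chromosome 2, 181569149 to 181582027), which encodes a related kinase-like protein, was listed at 17.02, 15.69 and 18.06 FPKM with vehicle and 16.29, 15.22 and 16.44 with LPC. Both genes overlapped between the groups, with 95% intervals of -0.23 to 0.14 and -0.27 to 0.12 on the log2 scale. Uck2 made up 73.5% ± 1.48 of the summed FPKM of the 3 kinase genes with vehicle and 76.9% ± 1.53 with LPC (SD, n = 3 each), with overlapping groups. The ratio of Uck2 to Uck1 also overlapped. That of Uck2 to Uckl1 did not, at 6.39 to 7.79 with vehicle and 7.88 to 9.11 with LPC. The FPKM of Uck2 was 41.3 ± 7.46 times that of Upp1 with vehicle and 18.8 ± 1.20 times with LPC. These ratios did not overlap, which restates the difference of Upp1 known beforehand and is no separate result.

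The thymidine kinase genes differed in opposite directions. Tk1 (chromosome 11, 117815519 to 117826087) encodes the cytosolic enzyme, which is made in dividing cells around S phase. It was listed at 38.97, 35.70 and 44.13 FPKM with vehicle and 52.36, 44.80 and 51.68 with LPC. The groups were separated only narrowly, by LPC replicate 2 and vehicle replicate 3. The change was 0.32 (SE 0.10, 95% interval 0.10 to 0.54), close to the limit of a call. Tk1 lost its call when vehicle replicate 1 (0.31) or 2 (0.25) or LPC replicate 1 (0.28) or 3 (0.29) was left out, and in 5 further settings, while its log2 change was positive in all 13 alternatives. Tk2 (chromosome 8, 104226691 to 104248592), the mitochondrial enzyme that serves mitochondrial DNA in cells at rest, was listed at 11.06, 10.59 and 11.97 FPKM with vehicle and 9.16, 9.38 and 9.18 with LPC. All LPC libraries lay below all vehicle libraries, yet Tk2 was not called (-0.25, SE 0.09, interval -0.45 to -0.05). With length and GC trends removed its change was again -0.25, and there it was called lower. The ratio of Tk1 to Tk2 was 3.53 ± 0.158 with vehicle and 5.37 ± 0.520 with LPC, with 3.37 to 3.69 in the former libraries and 4.78 to 5.72 in the latter. A single scaling factor per library cannot alter this ratio, but quantile normalization or removal of length and GC trends can. Since the 2 genes differed in opposite directions, the ratio separated the groups more widely than either gene did. It follows from those 2 differences and is no further result.

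**Figure D3:**
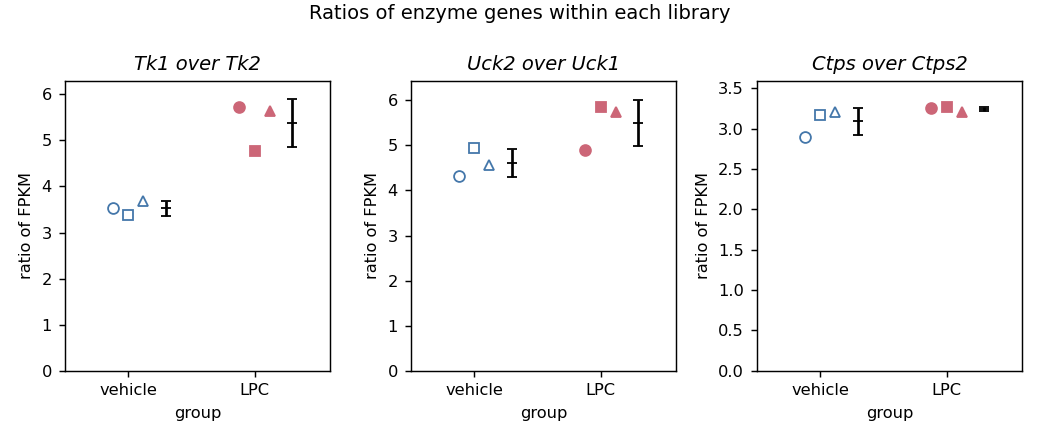
Ratio of the FPKM of Tk1 to Tk2, Uck2 to Uck1 and Ctps to Ctps2 in each library, by group; shapes are replicate numbers, and the black mark is the mean with its SD (n = 3). The ratio of Tk1 to Tk2 lies at 3.37 to 3.69 with vehicle and 4.78 to 5.72 with LPC, the groups overlap for Uck2 to Uck1, and Ctps to Ctps2 stays between 2.90 and 3.26.

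G1/S genes are given beside Tk1, because its transcript follows the cell cycle. Of the 13 G1/S markers 2 were called higher and none lower (5 higher and 0 lower at an unadjusted p under 0.05), with a median log2 change of 0.18 and positive values for 12. The replication licensing gene Cdc6 rose from 20.8 ± 2.29 to 27.8 ± 3.20 FPKM, a log2 change of 0.40 (SE 0.11, limma adjusted p = 0.0282). The helicase gene Mcm2 rose from 41.4 ± 3.49 to 53.5 ± 2.80 FPKM (0.37, SE 0.09, limma adjusted p = 0.0202). Cdc6 was called in 1 of the 6 fits that left out a library, the fit without LPC replicate 3, and Mcm2 in 3 of 6, failing when vehicle replicate 2 (0.38) or 3 (0.30) or LPC replicate 1 (0.36) was left out. The log2 change of Cdc6 in these fits was 0.31 to 0.49. Neither was called with no filter (0.40 and 0.37). The proliferation marker Mki67 had a log2 change of -0.13 and was not called. The part of cell cycle genes in the difference of Tk1 was not tested.

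De novo synthesis showed its largest difference at the entry enzyme. Cad (chromosome 5, 31054620 to 31078479) encodes the multifunctional protein for the opening steps of the route, from glutamine and bicarbonate to dihydroorotate. It was listed at 14.90, 13.26 and 14.61 FPKM with vehicle and 22.61, 21.00 and 16.54 with LPC. LPC replicate 3 lay well below the other LPC libraries but still above every vehicle library. The means were 14.3 ± 0.875 and 20.1 ± 3.14 FPKM, a ratio of 1.41 (log2 change 0.45, SE 0.11, 95% interval 0.21 to 0.70). Without LPC replicate 3 the change was 0.58. The longest Cad transcript has 7137 bases, among the 1001 longest tested genes, for which LPC replicate 3 gave low values; with each library's trend with length and GC share removed, the change was 0.50 and still called. The call of Cad was lost when vehicle replicate 1 (0.49) or 2 (0.41) or LPC replicate 1 (0.37) was left out, and without a filter on low values.

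Dhodh and Umps, the later enzymes of the route, were higher in every LPC library than in any vehicle library but were not called. Dhodh (chromosome 8, 109593244 to 109608699), whose product oxidizes dihydroorotate at the inner mitochondrial membrane, was listed at 6.13, 5.14 and 5.63 FPKM with vehicle and 6.88, 7.13 and 7.56 with LPC (log2 change 0.31, SE 0.10, interval 0.09 to 0.52). Its change was close to that of Tk1, and the limit of a call fell between them. Dhodh was called after quantile normalization (0.38), median centring (0.35) or removal of length and GC trends (0.27). Umps (chromosome 16, 33954782 to 33967038), the enzyme that completes UMP, was listed at 21.59, 21.75 and 23.19 FPKM with vehicle and 24.91, 25.63 and 24.63 with LPC (0.17, SE 0.09, interval -0.01 to 0.35), and was called after removal of length and GC trends (0.23). Ctps (chromosome 4, 120539868 to 120570276), which converts UTP to CTP and is the isoform known to matter for lymphocyte expansion, was listed at 31.75, 30.82 and 33.53 FPKM with vehicle and 32.88, 35.22 and 31.48 with LPC. The Ctps groups overlapped, and its interval ran from -0.14 to 0.24. Ctps was 3.09 ± 0.163 times as high as its paralog Ctps2 with vehicle and 3.24 ± 0.0278 times with LPC, groups that were separated by little (3.20 against 3.21).

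**Figure D4:**
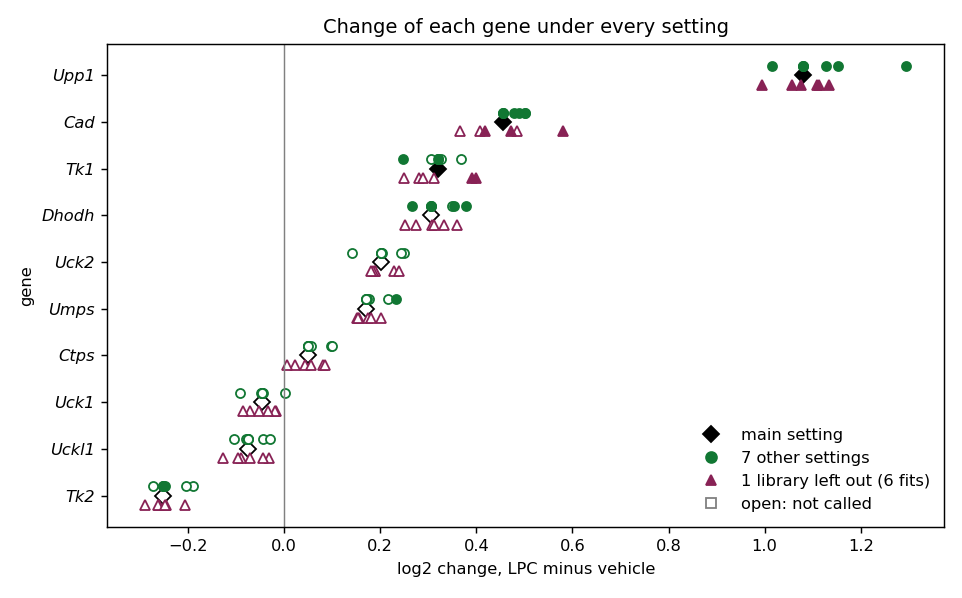
Log2 change (LPC minus vehicle) of each gene with the main setting (diamonds), under 7 other settings (circles) and with 1 library left out (triangles, 6 fits); filled symbols are called and open symbols are not. Upp1 stays between 0.99 and 1.30 and is called throughout, Cad is called in 9 of 13 alternatives and Tk1 in 4 of 13, and Uck1 crosses 0.

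Enzymes and carriers around these genes were read from the same fit. Neither the transporters nor the breakdown enzymes held a called gene. Of 7 nucleoside transporter genes 4 were tested by limma, and 0 were called (1 higher and 2 lower at an unadjusted p under 0.05). The main equilibrative carrier gene Slc29a1 was listed at 36.13 to 43.47 FPKM with vehicle and 40.41 to 47.71 with LPC, and the concentrative carrier gene Slc28a2 at 10.97 to 12.34 and 9.71 to 10.24 FPKM. Of 14 genes of breakdown and deamination 7 were tested, and 0 were called by limma (3 higher and 0 lower at an unadjusted p under 0.05). The 7 that were not tested include Upp2, Dpyd and Dpys, of uridine and uracil breakdown, each at no more than 0.06 FPKM. The cytidine deaminase gene Cda was listed at 0 in all 6 libraries. Upb1, the last enzyme of uracil breakdown, reached at most 1.01 FPKM.

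PRPP is the activated ribose that Umps and purine synthesis consume. Of 4 tested genes 2 were called lower and none higher (2 lower and 0 higher at an unadjusted p under 0.05). Prps1, which encodes a PRPP synthetase, fell from 67.0 ± 4.52 FPKM to 47.3 ± 2.11 FPKM, a log2 change of -0.49 (SE 0.09, limma adjusted p = 0.00411), and this call held in all 13 alternatives. Prpsap2, a regulatory partner of the synthetase, fell from 21.8 ± 1.48 to 17.0 ± 1.69 FPKM (-0.34, SE 0.10, limma adjusted p = 0.0367). Prpsap2 lost its call when vehicle replicate 1 (-0.33), 2 (-0.39) or 3 (-0.30) or LPC replicate 1 (-0.26) was left out, and with quantile normalization, median centring or no filter. Prps2 had a log2 change of -0.08 and Prpsap1 of -0.07, and neither was called.

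Among 8 tested ribose phosphate route genes 1 was called higher and none lower (3 higher and 0 lower at an unadjusted p under 0.05). Rbks, the ribokinase gene, rose from 5.26 ± 0.706 to 8.16 ± 1.43 FPKM (log2 change 0.54, SE 0.12, limma adjusted p = 0.0134), and was not called without a filter on low values. The symbols Pgm1 and Pgm2 are exchanged between the files and RefSeq. The gene listed as Pgm1 (ID 66681, Pgm2 in RefSeq), whose product handles ribose 1-phosphate, the product of Upp1, had 12.5 ± 1.16 FPKM with vehicle and 10.9 ± 0.897 with LPC (-0.18, 95% interval -0.39 to 0.04) and was not called.

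Sugar nucleotide genes use UTP. Of 6 tested, 2 were called lower and none higher (3 lower and 0 higher at an unadjusted p under 0.05). Uap1, which makes UDP-N-acetylglucosamine, fell from 17.5 ± 0.518 to 12.8 ± 0.828 FPKM (log2 change -0.42, SE 0.09, limma adjusted p = 0.00999), and was not called without vehicle replicate 2 (-0.40). Ugp2, which makes UDP-glucose, fell from 16.6 ± 0.536 to 12.8 ± 0.144 FPKM (-0.35, SE 0.09, limma adjusted p = 0.0204). Ugp2 lost its call when vehicle replicate 1 (-0.37), 2 (-0.34) or 3 (-0.33) or LPC replicate 1 (-0.35) was left out.

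Of 12 tested dTMP and dNTP supply genes 3 were called higher and none lower (5 higher and 0 lower at an unadjusted p under 0.05). The folate enzyme genes Shmt1 and Mthfd1, which feed one-carbon units to thymidylate and purines, rose from 15.5 ± 0.475 to 22.3 ± 0.768 FPKM (log2 change 0.50, SE 0.09, limma adjusted p = 0.00346) and from 20.4 ± 0.558 to 27.9 ± 0.989 FPKM (0.43, SE 0.08, limma adjusted p = 0.00696). Both were called in all 13 alternatives. Dut, which clears dUTP, rose from 39.3 ± 2.97 to 52.4 ± 8.55 FPKM (0.40, limma adjusted p = 0.0329). Its call was lost when vehicle replicate 1 (0.45), 2 (0.34) or 3 (0.40) or LPC replicate 3 (0.27) was left out, with no filter (0.40) and with median centring (0.44). Among 11 nucleotide kinase and CTP synthesis genes 1 was called higher and none lower (3 higher and 1 lower at an unadjusted p under 0.05). This was Nme4, a mitochondrial nucleoside diphosphate kinase gene, at 19.7 ± 4.89 and 30.2 ± 7.73 FPKM (0.59, SE 0.17, limma adjusted p = 0.0395). Its groups overlapped, and its call was lost when vehicle replicate 1 (0.54) or 2 (0.45) or LPC replicate 1 (0.58) or 3 (0.41) was left out, and with no filter (0.59), quantile normalization (0.59) or median centring (0.63).

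Purine genes were read for comparison. Of 15 tested purine synthesis and salvage genes 5 were called higher and none lower (5 higher and 0 lower at an unadjusted p under 0.05). The median log2 change of the 15 was 0.15, beside 0.19 for the 10 pyrimidine genes. Atic, Gart and Adsl, which act within the de novo purine route, had log2 changes of 0.39, 0.38 and 0.40 (limma adjusted p = 0.00905, 0.0127 and 0.0155). The salvage gene Aprt had a log2 change of 0.40 (limma adjusted p = 0.0292). The fifth, outside the naming rule, was Pfas of the de novo route. Atic was not called without vehicle replicate 1 (0.37). Gart lost its call when vehicle replicate 1 (0.36) or 2 (0.36) was dropped. Leaving out vehicle replicate 1 (0.38) or 2 (0.34) or LPC replicate 1 (0.39) ended the call of Adsl. Aprt lost its call when vehicle replicate 1 (0.41) or 2 (0.35) or LPC replicate 1 (0.35) or 3 (0.33) was dropped, with no filter (0.40) and with median centring (0.45). With length and GC trends removed the change of Aprt was 0.23 and still called. Adsl was also not called with no filter (0.40). Ppat, the entry enzyme of that route, was not called (0.11), so the gene of the opening step was called for pyrimidines (Cad) and not for purines; the difference between them was not tested.

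**Figure D5:**
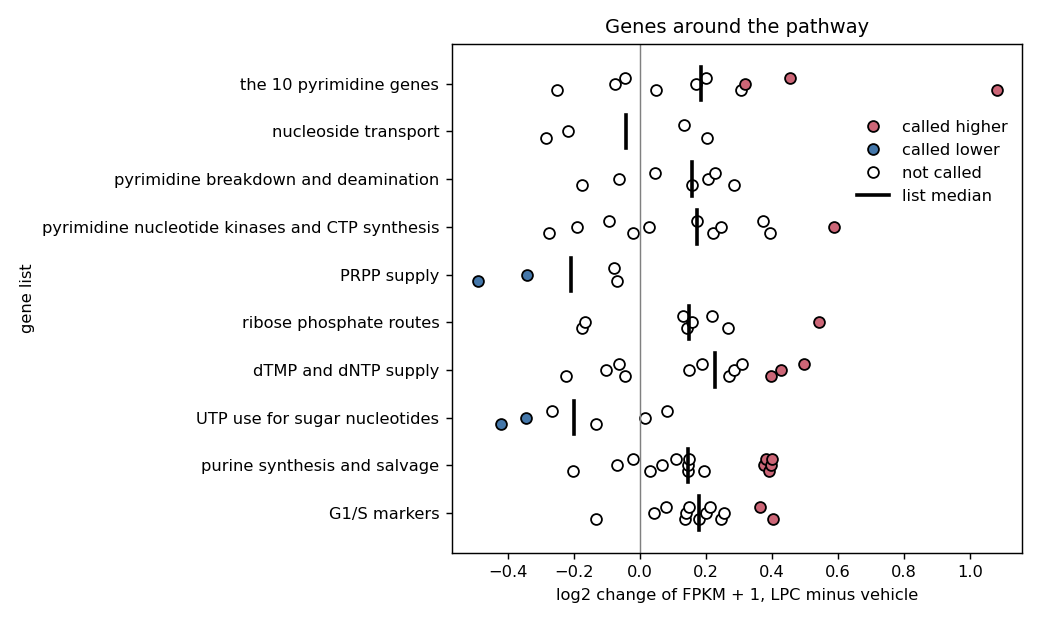
Log2 change of FPKM + 1 (LPC minus vehicle) of each tested gene, by list; red points are called higher, blue points called lower, white points not called, and the bar is the list median. The 10 pyrimidine genes have a median of 0.19. PRPP supply and sugar nucleotide genes each hold 2 genes called lower, and purine genes hold 5 called higher.

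The tested genes whose pattern over the 6 libraries was most like that of Upp1 were Dbnl, Hnrnpl, Srsf2, Atad3a and Mrps18b, by Pearson correlation of log2(FPKM + 1) among 7782 genes with a mean FPKM of 5 or more. Their r values were 0.995, 0.994, 0.993, 0.992 and 0.992, over libraries that form 2 groups, so any gene with a clean step between vehicle and LPC scores high. Their log2 changes, from 0.32 (Dbnl) to 0.62 (Atad3a), were smaller than that of Upp1. Another pattern, in Cad, set LPC replicates 1 and 2 above LPC replicate 3, whereas in Dhodh replicate 3 was the highest.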

How the data were processed

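RNA of 6 libraries, 3 with vehicle and 3 with LPC, was analysed from the authors' FPKM values. Per the labels' protocols, reads from a BGISEQ-500 were aligned to GRCm38 with Bowtie2, and the authors obtained FPKM by RSEM; the sources used here give no versions or settings. Deposited FPKM values are rounded to 2 decimals. Reads of similar genes are divided by estimate, and FPKM is relative to each library's total. No count test was used. Date-like symbols (24) were restored by gene ID, and 99.3% of IDs matched RefSeq genes of GRCm38.p6, which gave coordinates and promoters.

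Groups were compared with limma 3.58.1 in R 4.3.3 (trend, group as the single term, log2(FPKM + 1), FPKM reaching 1 in at least 3 libraries, Benjamini-Hochberg over 10138 genes). On values simulated for this comparison over 10138 genes, 78% of 1.5-fold and 98% of 2-fold changes were recovered, with 9 false calls among 185. Simulated noise was independent between genes, and its SD followed a smooth trend with level, so genes of equal level shared it. Recovery in the real libraries may therefore be lower. The 10 genes, the lists around them and the tests were chosen with earlier results of these data known. Named were all 10 genes, up to 4 called genes per list with the largest change, and the 5 genes most like Upp1; other list genes named without a call were chosen after their values were seen. Alternatives were a pseudocount of 0.1, no filter, a mean FPKM of 5 or more, quantile normalization, median centring, a replicate block, removal of length and GC trends (natural splines, 4 degrees of freedom, 98.7% of tested genes) and leaving out each library. A planned comparison of protein sequences was not made, since no protein table was used here.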

Additional observations from a re-analysis of the deposited data

How the results depend on the processing

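Over 13 alternatives, the log2 changes of the 10 genes and of the 15 called list genes under the naming rule were followed. All kept their direction except that of Uck1 (0.0012 with median centring). Pfas and the 5 genes most like Upp1 were not followed in this way. The number of the 10 genes called was 1 with no filter on low values, 5 with the replicate block and 6 with length and GC trends removed, and 1 to 3 with 1 library left out. Over all genes, 464 were called with no filter, where 16899 genes were tested, 2841 with the replicate block and 2282 with trends removed, against 1392, and 513 to 2026 with 1 library left out. Higher calls made up 42.4% of all calls, but 53.1% with median centring.

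With no filter, calls numbered 0 among nucleotide kinases, 1 in PRPP supply, 0 in ribose phosphate routes, 2 among purine genes and 0 among G1/S markers. Quantile normalization and median centring each gave 0 among nucleotide kinases and 1 in PRPP supply. The replicate block gave 1 in nucleoside transport, 4 among nucleotide kinases, 3 in ribose phosphate routes, 5 in dNTP supply and 4 among G1/S markers. With trends removed there were 3 among nucleotide kinases, 3 in ribose phosphate routes, 5 in dNTP supply, 8 among purine genes and 6 among G1/S markers. With 1 library left out, calls numbered 0 to 1 in nucleoside transport, 0 to 4 among nucleotide kinases, 1 to 2 in PRPP supply and in ribose phosphate routes, 2 to 4 in dNTP supply, 0 to 3 among sugar nucleotide genes and G1/S markers, and 0 to 4 among purine genes. The cause of these differences was not tested; fits with a library left out have fewer samples, and the one without a filter tests more genes.

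The replicate numbers were not treated as pairs in the main fit. Deviations of same-numbered libraries correlated at 0.018, 0.562 and 0.406. Each LPC library, and vehicle replicates 2 and 3, correlated best with the library of the same number. Vehicle replicate 1 correlated best with LPC replicate 3 (0.065, against 0.018 with LPC replicate 1). Whether the numbers mark pairs was not tested. Besides the 3 genes called without it, the replicate block called Dhodh and Tk2. The depth of each library is an estimate from FPKM steps, so no counting interval is given for low genes such as Upp1.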
